A study of Danio rerio with 2 samples.

Results

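The genes described are the nuclear genes for the mitochondrial ribosome, the respiratory chain with ATP synthase, and mitochondrial protein import and translation. They were chosen by symbol prefix (mrpl, mrps, nduf, sdh, uqcr, cox, atp5, timm, tomm, coq, chchd, mtif, mtrf, tufm, tfam and polg) and by a mean expression value of at least 1. All 34 genes that matched by symbol passed that minimum, of 3524 genes with such a mean and 4591 genes listed in all. The lowest values inside it were those of chchd4b, at 1.85 in the phf14 morpholino library and 1.18 in the standard morpholino library, and no matching gene lay outside it. No gene with a uqcr, tomm, coq, tufm, tfam or polg symbol was among them. The 4591 listed genes are only part of the annotated genes, so such an absence is not a result about expression. Complex III, the outer membrane import channel and coenzyme Q synthesis were therefore not analysed here.

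Whole embryos of the Tuebingen strain were injected at the 1-cell stage with 5 ng of a phf14 morpholino or 5 ng of a standard morpholino and collected at 4.7 h after fertilization. A morpholino is an antisense oligomer that blocks translation or splicing of a transcript; the libraries are called phf14 MO and standard MO below. Each group is 1 library, so no difference below has a replicate error and no test could be run. Whether and how many embryos were pooled was not stated in the labels, and the level of phf14 itself was not analysed here, so the knockdown is unchecked. The series addresses PHF14, a reader of histone H3, in the onset of zygotic transcription.

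Mitochondria make a few core proteins of the respiratory chain on their own ribosomes, from their own DNA, and import all other subunits after synthesis in the cytosol. Complexes I, III and IV and ATP synthase therefore join mitochondrially encoded subunits to many products of nuclear genes, helped by assembly factors. Complex II and all proteins of the mitochondrial ribosome are encoded in the nucleus. The zebrafish egg carries a large stock of mitochondria and of maternal mRNA, and the blastula depends on both while its own genome becomes active. In whole embryos, fewer cells with a transcript and less transcript per cell cannot be told apart.

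As a group, the 34 genes were nearly level between the libraries. Their deposited values summed to 394.42 in the phf14 morpholino library and 388.32 in the standard morpholino library, a ratio of 1.02. By gene, 18 had the higher value in phf14 MO and 16 the lower, where 62.3% of all genes tested were higher and 37.2% lower. Differences are given as log2 ratios of the phf14 over the standard morpholino library after adding 1 to each value, so that changes at low values are understated. The median log2 ratio of the members was 0.04 (ratio 1.03), and that of all genes tested was 0.11. Relative to that median gene, the members had a median of -0.07, and 22 of 34 lay below it, where 50% of all genes do by definition. Centring on the median gene or on genes of like level turns the members' median from slightly above to slightly below 0, so the sign of the group median is set by the scaling.

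With values as deposited, the members also had a smaller spread than all genes tested. The SD of their log2 ratios was 0.26, against 0.35 over all genes tested and 0.36 over the 2818 genes in the members' range of values. Within 1.2-fold of equality lay 25 of 34 members (73.5%), against 54.3% of all genes tested. This count was chosen after the data were seen. With a pseudocount of 5 it was 29 of 34, against 79.5% of all genes. Relative to genes of like level it was 23 of 34, against 61.9%. At both of these settings the share of the members was nearer to that of all genes than with values as deposited. A small spread was not particular to the members. The SD was 0.25 over 22 cytosolic ribosomal protein genes, 0.10 over 7 proteasome genes and 0.27 over 44 genes for other mitochondrial proteins. Of these lists, 81.8%, 100% and 59.1% lay within 1.2-fold. A single member passed 1.5-fold upward, where 4.94% of all genes did, and 0 of 34 passed it downward, where 2.84% of all genes did. Those shares of all genes hold for values as deposited with a pseudocount of 1 and were not counted at other settings. Under a 0.1 pseudocount, 2 members passed in each direction, while the SD over all genes tested rose to 0.46. Centring on the median gene, the trimmed mean factor and genes of like level each gave 0 upward and 2 downward, so that mrps35 no longer passed and mtrf1l and ndufaf2 did. For 12 members, none further from 0 than 0.13, the sign depended on the scaling between the libraries, and 11 higher and 11 lower members kept their sign under every scaling tried.

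**Figure D1:**
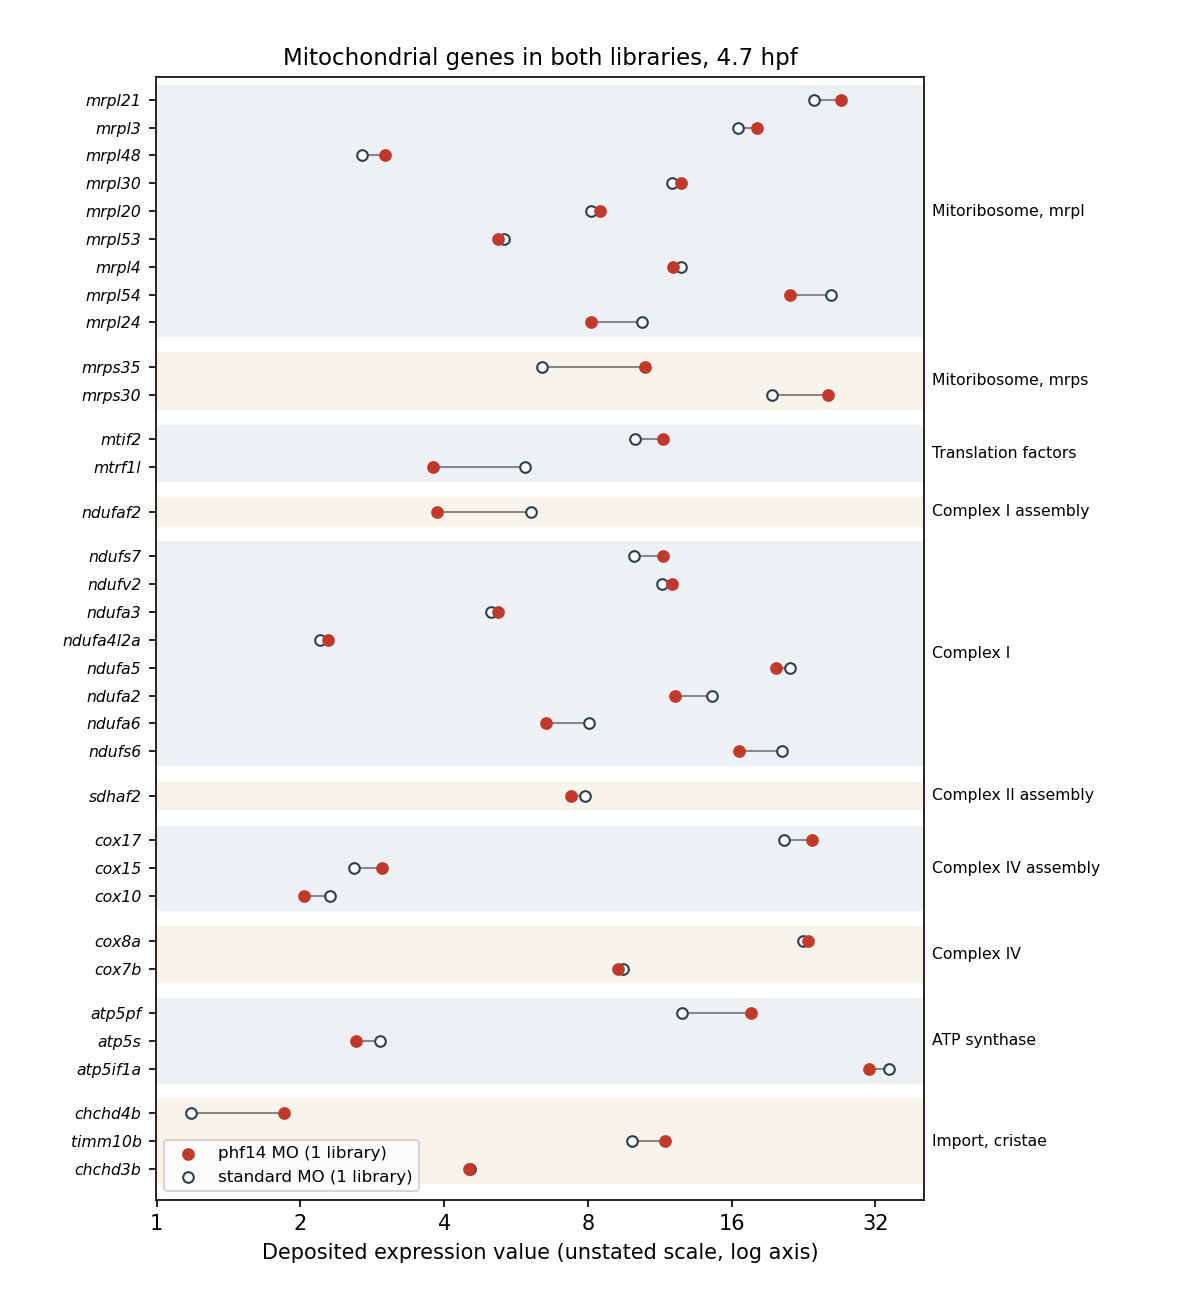
Deposited expression value of each of the 34 genes (x axis, log scale, unstated unit) in the phf14 morpholino library (filled red) and the standard morpholino library (open), grouped by role, 1 library each. Most pairs of points lie close together, and the widest gaps are those of mrps35, mtrf1l, ndufaf2 and chchd4b.

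The mitochondrial ribosome was represented by 9 mrpl genes and 2 mrps genes. The mrpl products belong to the large subunit, which holds the peptidyl transferase centre. Their log2 ratios had a median of 0.06 (-0.05 once the median gene is set to 0), with 5 higher, 4 lower and 0 past 1.5-fold. Of all genes tested, 62.3% were higher and 37.2% lower, and 4.94% and 2.84% passed 1.5-fold upward and downward. The sums of the mrpl genes were 115.72 in phf14 MO and 117.04 in standard MO. The mrps genes were both higher in phf14 MO, with sums of 35.93 in phf14 MO and 25.81 in standard MO.

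mrps35 (ENSDARG00000038456), for a small subunit protein without a bacterial counterpart, had a value of 10.52 in phf14 MO and 6.40 in standard MO. Its log2 ratio of 0.64 was the highest of all members, above 96.2% of the genes tested, and it stayed between 0.45 and 0.72 over the settings tried (other pseudocounts, scalings and filters on low values). In the RefSeq annotation it overlaps kcnq1.2, a potassium channel gene, and whether reads were assigned by strand is not stated. mrps30 (ENSDARG00000104111) was at 25.41 in phf14 MO and 19.41 in standard MO, a log2 ratio of 0.37. Despite its symbol, the human protein is placed in the large subunit, so the pair does not stand for the small subunit alone.

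At the upper end of the mrpl genes, mrpl21 was at 27.04 in phf14 MO and 23.74 in standard MO (log2 ratio 0.18). mrpl3, for a protein near the peptidyl transferase centre, was at 18.09 in phf14 MO and 16.48 in standard MO (0.13). Both were higher in the phf14 morpholino library under all scalings, by a small margin. At the lower end, mrpl24 was at 8.12 in phf14 MO and 10.40 in standard MO (-0.32). It overlaps mllt11 in the RefSeq annotation. mrpl54, for a protein specific to mitochondrial ribosomes, was at 21.21 in phf14 MO and 25.79 in standard MO (-0.27). These 2 genes kept their sign under every scaling.

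The other mrpl genes differed too little for a direction that holds under all scalings. mrpl48 was at 3.01 in phf14 MO and 2.69 in standard MO, and mrpl20 at 8.49 in phf14 MO and 8.11 in standard MO. mrpl30 was at 12.53 in phf14 MO and 11.97 in standard MO. mrpl4 was at 12.05 in phf14 MO and 12.51 in standard MO, and mrpl53 at 5.18 in phf14 MO and 5.35 in standard MO. Genes for proteins shared with bacterial ribosomes (such as mrpl3 and mrpl24) and for mitochondrion-specific ones (such as mrpl48 and mrpl54) were both spread from higher to lower, with log2 ratios of 0.13 and -0.32 for mrpl3 and mrpl24 and of 0.12 and -0.27 for mrpl48 and mrpl54.

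The members for translation factors were an initiation and a termination gene, and these lay apart. mtif2, whose product brings the initiator tRNA to the mitochondrial ribosome, was at 11.48 in phf14 MO and 10.03 in standard MO (log2 ratio 0.18). mtrf1l (ENSDARG00000060005), for a release factor that ends mitochondrial translation at stop codons, was at 3.79 in phf14 MO and 5.92 in standard MO (-0.53). Of all genes tested, 3.89% had a lower log2 ratio than mtrf1l. It was lower in the phf14 morpholino library at every setting, between -0.71 and -0.31, and passed 1.5-fold after centring on the median gene.

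Complex I (NADH dehydrogenase), the entry point for electrons from NADH, leaned to lower values relative to the median gene. The 9 genes with an nduf symbol include ndufa4l2a and an assembly factor gene. Of these 9, 8 lay below the median gene, where 50% of all genes do by definition. The sums of these 9 were 89.97 in phf14 MO and 98.74 in standard MO, a ratio of 0.911. Over the genes in the members' range of values the ratio of sums was 1.07. Over all genes tested it was 0.939, a sum in which the most abundant genes weigh most. With values as deposited 4 of the 9 were higher and 5 lower, where 62.3% of all genes tested were higher and 37.2% lower. With equal totals the median of the 9 was -0.003. ndufaf2 (ENSDARG00000069286), for an assembly factor that joins late in the building of the complex, was at 3.86 in phf14 MO and 6.07 in standard MO. Its log2 ratio of -0.54 was the lowest of all members, and it ranged from -0.72 to -0.32 over the settings. Without ndufaf2, the 8 other nduf genes had a ratio of sums of 0.929. Their median was -0.02 as deposited, -0.13 relative to the median gene and 0.05 with equal totals.

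Accessory subunits, which surround the catalytic core, made up most of the lower complex I genes. They also made up most of the nduf genes among the members. ndufs6, for a zinc-binding subunit, was at 16.55 in phf14 MO and 20.35 in standard MO (-0.28). ndufa6, for a subunit of the LYR family, was at 6.55 in phf14 MO and 8.05 in standard MO (-0.26). ndufa2 was at 12.20 in phf14 MO and 14.52 in standard MO (-0.23). All 3 were lower in the phf14 morpholino library under every scaling. ndufa5 was lower by less, at 19.84 in phf14 MO and 21.15 in standard MO (-0.09), and came within 0.01 of level with equal totals.

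Of the core subunits that carry iron-sulphur clusters, only ndufs7 and ndufv2 were among the members, and both had slightly higher values as deposited. ndufs7, whose product holds the last cluster before coenzyme Q, was at 11.50 in phf14 MO and 9.97 in standard MO (0.19). It was the single nduf gene above the median gene. ndufv2, for a subunit of the NADH-oxidising module, was at 11.99 in phf14 MO and 11.41 in standard MO (0.07, below 0 after centring). ndufa3, for an accessory subunit, was at 5.19 in phf14 MO and 5.02 in standard MO (0.04, below 0 after centring). ndufa4l2a was at 2.29 in phf14 MO and 2.20 in standard MO (0.04, below 0 after centring). It carries a complex I symbol, although the related NDUFA4 protein of mammals is a part of complex IV.

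For complex II (succinate dehydrogenase), the member was sdhaf2, whose product attaches the flavin to the catalytic subunit. It was at 7.38 in phf14 MO and 7.90 in standard MO (-0.09), and within 0.01 of level with equal totals.

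Complex IV (cytochrome c oxidase), which passes electrons to oxygen, was represented by 5 genes, all within 1.2-fold as deposited. Their sums were 60.94 in phf14 MO and 57.54 in standard MO. The structural subunit genes were nearly equal. cox8a was at 23.08 in phf14 MO and 22.56 in standard MO (0.03, below 0 after centring), and cox7b was at 9.24 in phf14 MO and 9.49 in standard MO (-0.03, above 0 with equal totals). Of the assembly genes, cox17, for the copper chaperone of the enzyme, was at 23.61 in phf14 MO and 20.59 in standard MO (0.19). The haem A pathway was split. cox15, for haem A synthase, was at 2.97 in phf14 MO and 2.59 in standard MO (0.15), whereas cox10, for the farnesyltransferase that acts just before it, was at 2.04 in phf14 MO and 2.31 in standard MO (-0.12). Both are low values, and both kept their sign under every scaling.

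ATP synthase, which uses the proton gradient to make ATP, was represented by 3 genes, 1 of them higher and 2 slightly lower as deposited. atp5pf (ENSDARG00000014313), for a subunit of the stalk that holds the catalytic head still, was at 17.60 in phf14 MO and 12.61 in standard MO. Its log2 ratio of 0.45 was the second highest of the members, above 87.7% of all genes tested, and it ranged from 0.34 to 0.53 over the settings. atp5if1a, for the inhibitor that blocks reverse rotation of the enzyme, was at 31.06 in phf14 MO and 34.17 in standard MO (-0.13). That sign was not kept, as its log2 ratio was 0.02 relative to the median of genes with like values. atp5s, a coupling factor gene named dmac2l in RefSeq, was at 2.61 in phf14 MO and 2.93 in standard MO (-0.12).

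Import and inner membrane organisation were represented by 3 genes. timm10b, for a small chaperone that guides membrane proteins through the intermembrane space, was at 11.58 in phf14 MO and 9.91 in standard MO (0.21). chchd4b, for the oxidoreductase that folds imported cysteine-rich proteins, was at 1.85 in phf14 MO and 1.18 in standard MO. Its log2 ratio of 0.39 ran from 0.15 to 0.61 across the settings, since its values are the lowest among the members and the pseudocount weighs most on low values. chchd3b, for a component of the cristae-organising MICOS complex, was at 4.51 in phf14 MO and 4.54 in standard MO (-0.01, above 0 with equal totals). chchd3b, chchd4b and atp5if1a each have a second zebrafish copy (chchd3a, chchd4a and atp5if1b), not analysed here, and how the authors treated reads that match both copies is not stated.

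**Figure D2:**
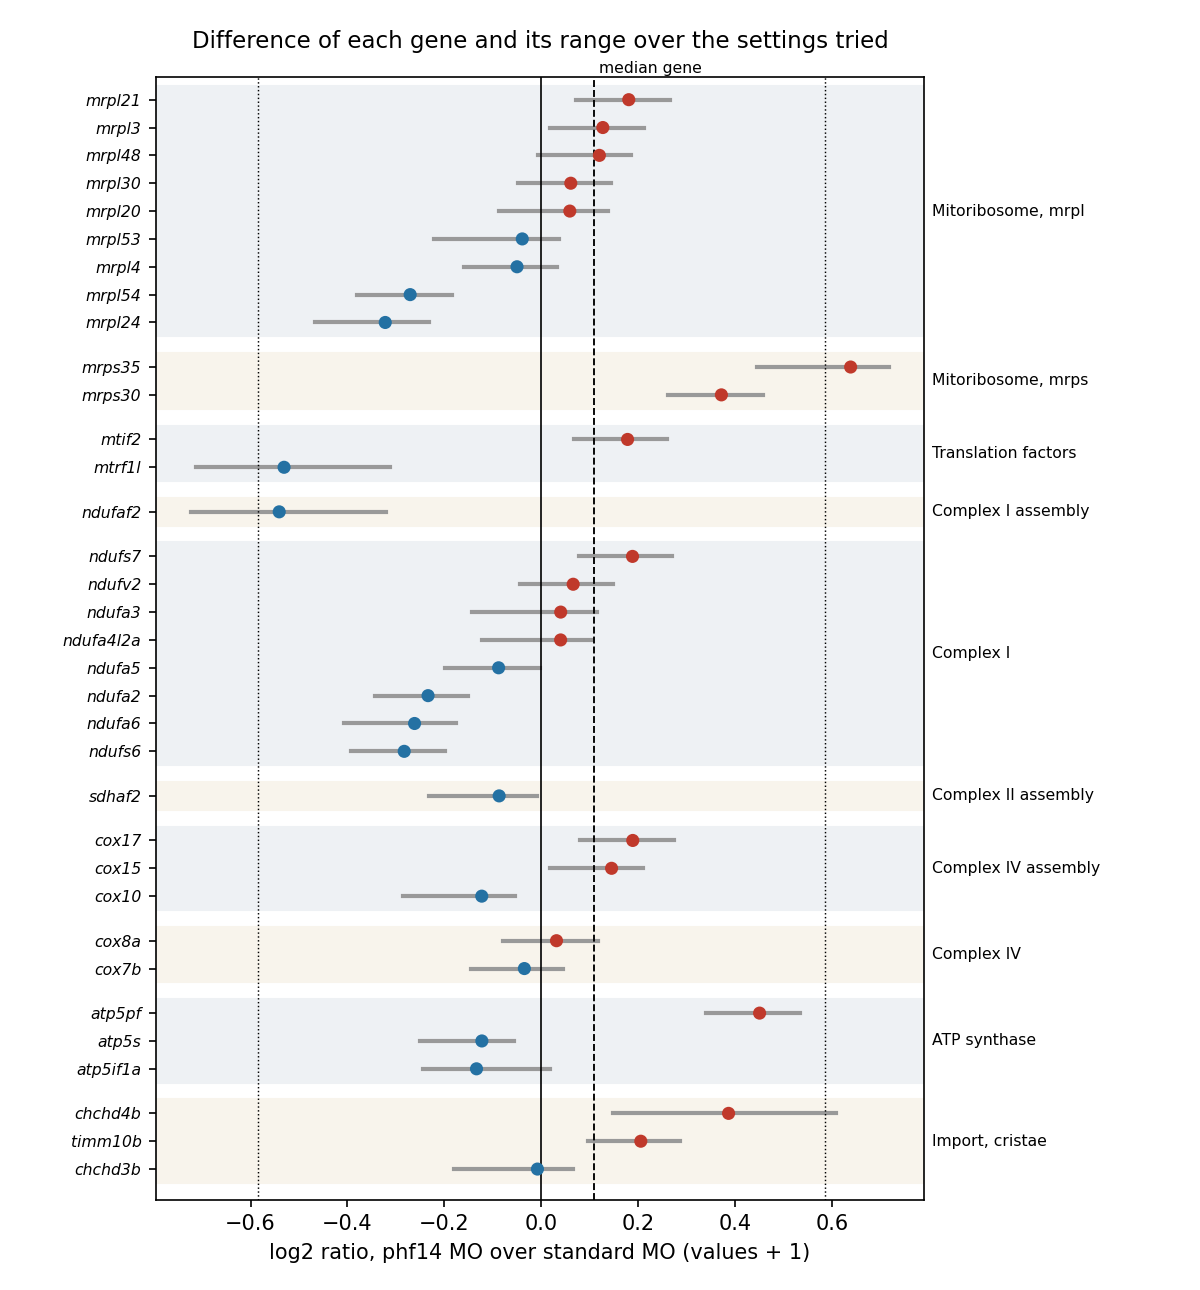
log2 ratio of the phf14 over the standard morpholino library for each gene (points; red above 0, blue below), with grey bars for its lowest and highest value over the settings tried, the median gene at 0.11 (dashed) and 1.5-fold (dotted). mrps35 at 0.64 is the single point past 1.5-fold, and 12 of the grey bars cross 0.

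The members spanned a wide range of values, and the log2 ratios of the whole table depended on level. Values are compared here within the authors' scale, on which correction for gene length is not stated. The 17 members with a mean value of at least 10 had a median log2 ratio of 0.07, with 11 higher and 6 lower. Over the 709 genes in the same range the median was 0.08, and 58.3% were higher. The 17 members with lower means had a median of -0.03, with 7 higher and 10 lower. Over 2109 genes of that range the median was 0.16, and 68.3% were higher. The lower-valued members thus lay further under other genes of their level than the higher-valued ones did; this difference was not tested. A single member, atp5if1a, was among the 352 most abundant genes, whose median was -0.15.

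**Figure D3:**
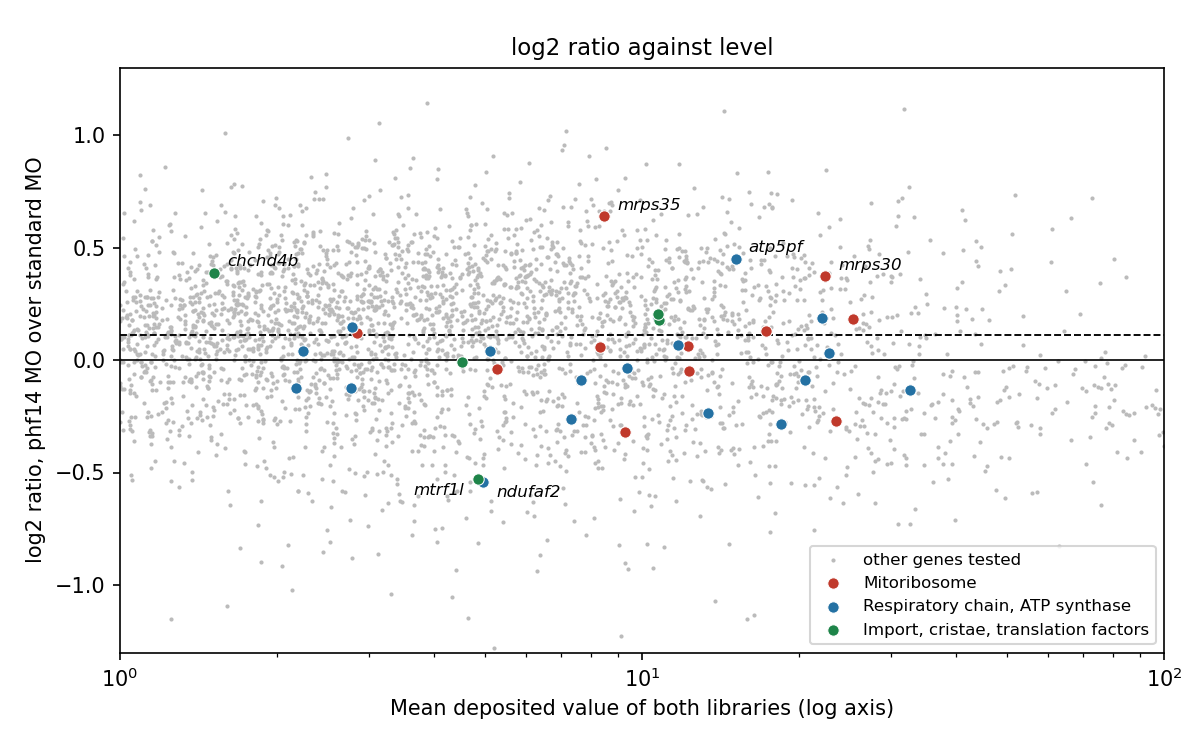
log2 ratio (y axis) against the mean deposited value of both libraries (x axis, log scale) for the 34 members in colour and the other genes tested in grey; 113 genes, none of them a member, lie outside the axes. Members have mean values from 1.515 to 32.615, and most lie in the middle of the cloud there, with mrps35 above and ndufaf2 and mtrf1l below the other members.

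Nuclear genes for other mitochondrial proteins, taken from lists of 223 symbols, were set beside the members. Of these, 44 had a mean value of at least 1 and are called measured here, as in the lists below. The other symbols were either absent from the listed genes, which are only part of the annotated genes, or had a lower mean. The number of genes measured is therefore not a result about expression. Of the 44, 31 were higher (70.5%) and 13 lower in phf14 MO. Of all genes tested, 62.3% were higher and 37.2% lower. The 44 genes had a median of 0.15 (0.04 once the median gene is set to 0). Relative to genes of like level the median of the 44 was 0.01, the lowest over the settings tried. The highest was that of the 19 of them with a mean value of at least 5, at 0.26, beside 0.07 over the 1683 genes with such a mean. Past 1.5-fold upward were 4.94% of all genes tested and 0 of the 44, and past it downward were 2.84% and 1 of the 44. That gene was slc25a1b, a mitochondrial citrate carrier gene, at 3.85 in phf14 MO and 7.0 in standard MO (-0.72). Of these 44 genes 27 lay above the median gene, whereas 12 of the 34 members did; with 1 library per group the difference has no test.

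Of 21 listed genes that charge or modify mitochondrial tRNAs, 6 were measured, with low mean values from 1.09 to 4.91. The median of the list was 0.21, or 0.12 without the minimum mean, where that of all listed genes was 0.09. All 6 measured genes were higher in phf14 MO, as were 62.3% of all genes tested, and 5 of 6 lay above the median gene. They ran from qrsl1, for a subunit of the glutamine tRNA amidotransferase, at 5.12 in phf14 MO and 4.70 in standard MO (0.10, below 0 after centring), to the valine tRNA synthetase gene vars2 at 2.91 in phf14 MO and 1.91 in standard MO (0.43). Mitochondrial DNA and RNA factors were split, with 6 higher and 6 lower and a median of 0.06 (below 0 after centring, but 0.31 over the 4 genes averaging 5 or more). The RNA-binding gene fastkd5 was highest, at 7.96 in phf14 MO and 5.81 in standard MO (0.40), and its relative fastkd2, which acts in ribosome assembly, was lowest at 2.12 in phf14 MO and 3.03 in standard MO (-0.37). Assembly factors and electron carriers outside the symbol rule had 8 higher and 3 lower genes and a median of 0.16, which was 0.46 over the 5 genes averaging 5 or more. Among these fxn, the frataxin gene of iron-sulphur cluster synthesis, was at 6.06 in phf14 MO and 4.04 in standard MO (0.49), and the complex III assembly gene uqcc3 was at 2.98 in phf14 MO and 4.26 in standard MO (-0.40).

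Protein quality control and membrane organisation genes had 5 higher and 1 lower and a median of 0.32, or 0.26 over the 4 genes averaging 5 or more. Beside this list and the next, 62.3% of all genes tested were higher and 37.2% lower. samm50, for the channel that inserts barrel proteins into the outer membrane, was at 3.54 in phf14 MO and 2.17 in standard MO (0.52). The import motor cofactor gene grpel2 was at 20.0 in phf14 MO and 21.45 in standard MO (-0.10). In the list of dynamics, channels and carriers, 4 genes were higher and 2 lower, with a median of 0.15 (0.27 over the 3 genes averaging 5 or more), and the fission receptor gene mief2 was highest at 13.04 in phf14 MO and 10.04 in standard MO (0.35). Of the citric acid cycle list, pcxa, for pyruvate carboxylase (log2 ratio 0.26), and pdp1, for a phosphatase of pyruvate dehydrogenase (0.21), were measured. yy1a, for a transcription factor that in mammals acts on respiratory genes, was at 88.10 in phf14 MO and 101.34 in standard MO (-0.20).

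Cytosolic ribosomal protein and proteasome subunit genes are likewise genes of large complexes. Of all genes tested, 62.3% were higher and 37.2% lower. Of 22 cytosolic ribosomal protein genes, 4 were higher and 18 lower, with a median of -0.10. All 22 of 22 lay below the median gene, where 50% of all genes do by definition. All 22 belong to the 352 most abundant genes, and relative to these their median was 0.05. rps13 was at 363.15 in phf14 MO and 350.64 in standard MO (log2 ratio 0.05, below 0 after centring), the highest of the list, and rpl26 was at 131.85 in phf14 MO and 277.49 in standard MO (-1.07), the lowest. Of 7 proteasome genes, 1 was higher and 6 lower (median -0.11). They ran from psmb1, at 35.30 in phf14 MO and 32.77 in standard MO (0.10, below 0 after centring), to psmb8a, at 3.50 in phf14 MO and 4.15 in standard MO (-0.19). Between the mitochondrial and the cytosolic ribosome the medians thus differed in sign as deposited, at 0.06 and -0.10, but both lay below the median gene. Relative to genes of like level they were -0.04 and 0.05, in the opposite order.

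**Figure D4:**
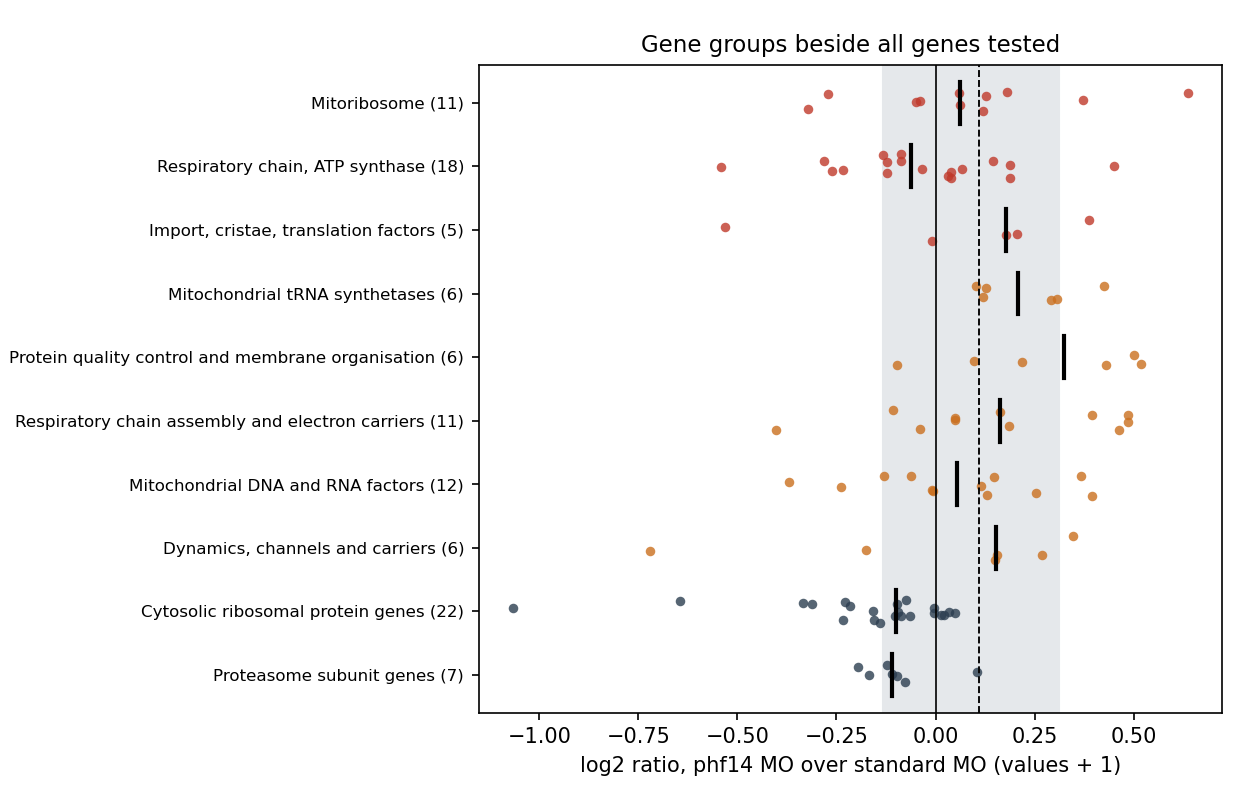
log2 ratios (x axis) by gene group, with the number of genes in brackets, a black bar at each median, the median of all genes at 0.11 (dashed) and their interquartile range from -0.13 to 0.31 (grey band). With values as deposited, respiratory chain and ATP synthase genes (median -0.06) lie between the other mitochondrial lists, with medians from 0.06 to 0.32, and the cytosolic ribosomal and proteasome genes at -0.10 and -0.11. This order is not kept relative to genes of like level, where respiratory chain and ATP synthase genes are at -0.14 and cytosolic ribosomal protein genes at 0.05.

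Markers of other compartments also differed between the libraries. Of 14 enveloping layer markers (the outer epithelium) 12 were measured, 12 of them lower in the phf14 morpholino library, with sums of 1888.41 in phf14 MO and 2339.75 in standard MO. Of 9 yolk syncytial layer markers 4 were measured, all lower, with sums of 258.33 in phf14 MO and 360.84 in standard MO. Oocyte-supplied transcripts went the other way, with 9 of 14 measured, 8 of them higher, and sums of 448.75 in phf14 MO and 325.04 in standard MO. Of all genes tested, 37.2% were lower and 62.3% higher. Among the 352 most abundant genes, whose median was -0.15, were 7 of the enveloping layer and 3 of the yolk syncytial layer markers. In the order given, the 3 lists had medians of -0.36, -0.54 and 0.43 as deposited. Relative to genes of like level these medians were -0.29, -0.39 and 0.58. The part of these marker differences in the values of the mitochondrial genes was not tested. The deposited values of all listed genes summed to 71136 in phf14 MO and 75675 in standard MO, of which the members held 0.554% in phf14 MO and 0.513% in standard MO. Genes in the members' range of values summed to 21936 in phf14 MO and 20559 in standard MO. That is a ratio of 1.07, above the 1.02 of the members.

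In the RefSeq annotation 9 of the 34 members overlap another gene, among them mrps35, mrpl24, ndufa6 and chchd4b. Without these 9, 14 members were higher and 11 lower, with a median of 0.04 as for the whole group. Of all genes tested, 62.3% were higher and 37.2% lower.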

How the data were processed

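Whole zebrafish embryos of 2 groups, 1 library each, were measured by RNA sequencing. For each library the authors deposited an expression signal per gene, of unstated scale, headed only as expression per the file headers. No source used here gives the aligner, genome build, counting or scaling. The depth is unknown, and no counting interval can be computed.

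The members, role groups and gene lists were chosen with earlier results of these data known. The log2 ratio of phf14 morpholino over standard morpholino was taken on values plus a pseudocount of 1, without rescaling, for 3524 genes (mean value 1 or more). Genes past 1.5-fold were counted. With 1 library per group no test was run. Medians of lists stand beside those of all genes. The calculation was checked on simulated data (Python 3.11.15, numpy 2.4.6, pandas 2.3.3; figures with matplotlib 3.10.9). The simulation used only genes with higher values and a smaller pseudocount than the one above, so the handling of low values was not checked.

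The rule for named genes took members past 1.5-fold, the highest and lowest ratio of each role group with at least 3 members, and the 5 members with the highest values, 14 in all. The remaining members are given so that each is accounted for. Of other lists the highest and the lowest ratio are named, except of the marker lists, given by sums, counts and medians. Further genes of these lists are named under other observations, chosen after their values were seen. All 34 members matched the gene name table by identifier and 1 RefSeq gene each (GRCz12tu) by symbol, used for names and neighbours only. Promoter and protein sequences were not analysed here. Alternatives comprised pseudocounts of 0.1 and 5, other scalings (centring on the median gene, a trimmed mean factor, equal totals, the tenth of genes of like level), a minimum mean of 0 or 5, other thresholds and means. The count within 1.2-fold and leaving out the members that overlap another gene were added after seeing the data.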

Additional observations from a re-analysis of the deposited data

How the results depend on the processing

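The members' median (0.04 as reported) was -0.074 after centring on the median gene, -0.073 with the trimmed mean factor and -0.105 relative to the median of genes of like level. In the same order of settings the mrpl genes (reported 0.06) were at -0.051, -0.049 and -0.087, all mitochondrial ribosome genes (0.06) at -0.049, -0.047 and -0.040, and the mitochondrial DNA and RNA factors (0.06) at -0.054, -0.053 and -0.089. Equal totals gave complex I genes 0.049 (reported -0.02) and respiratory chain and ATP synthase genes 0.022 (-0.06). Relative to genes of like level, ATP synthase genes were at 0.018 (-0.12) and cytosolic ribosomal protein genes at 0.052 (-0.10). The mean in place of the median gave mrpl genes -0.015 and ATP synthase genes 0.065. Members past 1.5-fold, 1 higher and 0 lower as reported, were 2 and 2 with a pseudocount of 0.1, 0 and 0 with a pseudocount of 5 or at 2-fold, 0 and 2 under centring, the trimmed mean factor and like level, and 4 and 3 past a log2 ratio of 0.32. The share of all genes past the threshold was counted only for the reported setting, so none stands beside the other counts. With a mean of at least 5, the mrpl genes were at 0.0099 (8 genes) and the complex I genes at -0.088 (7 genes). Members higher ran from 12 to 22, where the share of all genes higher ran from 49.9% to 69.7%. mrps35, the member past 1.5-fold, kept its sign at every setting, and of all 34, 12 changed sign under a scaling. The shifts under centring, the trimmed mean factor and like level follow from the constant or level-wise value that each of them subtracts. No paired analysis was possible because there is a single library in each group, which also means that none could be left out. Depth is unknown, so the precision of low values such as those of chchd4b cannot be given.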

Other observations

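Within the lists of other mitochondrial genes, the groups named here were singled out after their values were seen. The outer membrane sorting and assembly machinery had 3 measured genes, and all were higher in the phf14 morpholino library, as were 62.3% of all genes tested. samm50l, the second copy of samm50, was at 10.01 in phf14 MO and 7.17 in standard MO (log2 ratio 0.43), and mtx1a, for the metaxin that docks on the channel, was at 8.08 in phf14 MO and 5.41 in standard MO (0.50). With samm50 at 0.52, all 3 had a positive log2 ratio under every scaling. How reads that match both samm50 and samm50l were treated is not stated. The other measured genes of the protein quality control and membrane organisation list were grpel2 (-0.10), hspe1 (0.10) and afg3l2 (0.22).

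Of iron-sulphur cluster synthesis, 2 listed genes were measured, and both were higher in the phf14 morpholino library under every scaling. With values as deposited, 62.3% of all genes tested were higher. nfs1, for the cysteine desulphurase that supplies sulphur, was at 14.08 in phf14 MO and 9.77 in standard MO (0.49), the same log2 ratio as its partner fxn. The measured ATP synthase assembly genes were split. tmem70 was at 8.17 in phf14 MO and 5.65 in standard MO (0.46), and atpaf2 at 10.91 in phf14 MO and 9.64 in standard MO (0.16). atpaf1 was at 17.34 in phf14 MO and 18.74 in standard MO (-0.11).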
